A study of Homo sapiens with 4 samples.

Results

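The integrated stress response and the unfolded protein response were followed through 39 genes, chosen by name with earlier results of these data known. All 39 were measured by a probe that lists no other gene, among 18417 genes tested. They were read in HuH7, a hepatocellular carcinoma cell line, on 4 expression arrays. Both groups were infected with a lentiviral pLKO.1 vector, selected with puromycin for 7 days and used at under 10 passages in medium with 10% serum. The 2 control arrays come from cells with a control shRNA and the 2 knockdown arrays from cells with shRNA directed against MKL1 and MKL2 (now MRTFA and MRTFB), the actin-regulated coactivators of serum response factor. The labels call the samples biological replicates without saying whether infections were separate, and they do not name the hairpin sequences or how many were used, so effects of a hairpin on other transcripts were not tested. P-values then measure the spread between these samples alone.

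In the integrated stress response, kinases that sense amino acid lack, viral RNA, haem lack or misfolded protein phosphorylate the translation factor eIF2. General translation falls while translation of the transcription factor ATF4 goes up, and ATF4 then turns on genes for amino acid uptake, amino acid and one-carbon synthesis and tRNA charging. The unfolded protein response watches over the endoplasmic reticulum (ER) through the sensors PERK (EIF2AK3), IRE1 (ERN1) and ATF6, which raise ER chaperones and the machinery that removes misfolded proteins. Hepatocytes secrete large amounts of plasma protein and depend on this machinery. ATF4 is controlled mainly in translation, XBP1 by splicing and ATF6 by proteolysis, so their transcript levels as measured here are not a measure of their activity.

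The promoters of several of these genes hold the elements through which the responses are known to act, and they are shown so that each gene's value can be read beside its element. Promoter windows of RefSeq (GRCh38.p14), each with 250 bases before a transcription start and 50 after it, were found by symbol for 34 of the 39 genes, in 48 windows, and not for SHMT2, NUPR1, PSPH, ALDH1L2 and SLC7A11. The core of the C/EBP-ATF composite element, at which ATF4 pairs with a C/EBP partner, was searched as TTNCATCA on both strands. It was present in 3.62% of all 35116 windows and in 8 of these 48. By gene, it was in a window of 4.46% of all 27305 genes and of 8 of the 34. Those 8 were AARS1, ASNS, CEBPG, CHAC1, GARS1, HERPUD1, SLC3A2 and SLC7A1. The 250 bases before the start are given for 3 of them, 5′ to 3′ in the direction of the gene, with the match in capitals.

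ASNS (chr7:97872409-97872658, minus strand): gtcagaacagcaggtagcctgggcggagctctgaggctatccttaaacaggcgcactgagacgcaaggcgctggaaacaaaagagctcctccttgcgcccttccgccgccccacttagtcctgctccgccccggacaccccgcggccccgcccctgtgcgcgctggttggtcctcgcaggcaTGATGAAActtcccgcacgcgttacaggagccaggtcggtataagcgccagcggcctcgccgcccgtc

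AARS1 (chr16:70289507-70289756, minus strand): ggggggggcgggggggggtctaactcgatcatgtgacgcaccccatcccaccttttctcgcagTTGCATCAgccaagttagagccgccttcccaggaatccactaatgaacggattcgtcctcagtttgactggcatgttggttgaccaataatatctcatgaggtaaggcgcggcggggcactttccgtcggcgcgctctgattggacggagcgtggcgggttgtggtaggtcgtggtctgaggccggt

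CHAC1 (chr15:40953221-40953470, plus strand): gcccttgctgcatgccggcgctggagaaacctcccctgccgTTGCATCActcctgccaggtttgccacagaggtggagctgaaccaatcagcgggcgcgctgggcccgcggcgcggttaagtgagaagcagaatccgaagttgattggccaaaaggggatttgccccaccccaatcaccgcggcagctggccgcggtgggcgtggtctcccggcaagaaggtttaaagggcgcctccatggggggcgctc

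The match began 68 bases before the start in ASNS, 187 in AARS1 and 209 in CHAC1. In SLC7A1 the match TGATGAAA, the same letters as in ASNS, began at base 8 after the start. The ER stress response element, CCAAT followed after 9 bases by CCACG on either strand, was far rarer, in 0.0769% of all windows, and was found in HSPA5, HSP90B1 and XBP1, which encode the central chaperones and a transcription factor of the unfolded protein response.

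HSPA5 (chr9:125241344-125241593, minus strand): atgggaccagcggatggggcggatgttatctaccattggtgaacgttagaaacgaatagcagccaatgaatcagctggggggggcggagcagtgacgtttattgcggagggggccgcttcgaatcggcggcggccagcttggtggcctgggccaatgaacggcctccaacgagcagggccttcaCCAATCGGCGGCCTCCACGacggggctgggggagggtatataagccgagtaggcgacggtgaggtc

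HSP90B1 (chr12:103930160-103930409, plus strand): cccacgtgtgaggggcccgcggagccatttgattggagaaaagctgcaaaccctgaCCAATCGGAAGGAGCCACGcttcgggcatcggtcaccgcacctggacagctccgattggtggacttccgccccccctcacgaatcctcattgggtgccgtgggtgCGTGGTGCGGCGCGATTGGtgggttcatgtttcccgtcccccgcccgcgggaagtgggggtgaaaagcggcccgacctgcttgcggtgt

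XBP1 (chr22:28800570-28800819, minus strand): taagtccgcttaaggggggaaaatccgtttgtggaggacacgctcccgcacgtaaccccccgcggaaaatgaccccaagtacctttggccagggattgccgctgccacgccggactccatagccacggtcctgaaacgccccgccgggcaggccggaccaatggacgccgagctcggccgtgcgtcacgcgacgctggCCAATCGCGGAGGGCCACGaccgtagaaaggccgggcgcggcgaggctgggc

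HSP90B1 held this element on both strands, 194 and 89 bases before the start, whereas HSPA5 held it 66 and XBP1 52 bases before it. The unfolded protein response element TGACGTGG (0.729% of windows) was in none of the 48 windows, and the cAMP response element TGACGTCA (1.85%) was in that of PPP1R15A. The CArG box, the motif of serum response factor (1.29% of windows), was in a window of GARS1. A match describes letters and is no evidence of binding.

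The knockdown was checked first on the targets. The only probe that lists MRTFA, which also lists RBM15, read 7.77 and 7.80 in the control arrays and 6.81 and 6.91 in knockdown replicates 1 and 2. MRTFB read 7.20 and 7.22 in the control arrays against 6.84 and 7.11 in the knockdown arrays (log2 difference -0.23, SE 0.12, limma adjusted p = 0.448). Of 10 hepatocyte markers, 8 were measured, and in all 4 arrays they lay above the upper quartile of the probes (7.44 to 7.48), from APOA1, near 10, up to AFP and ALB, near 12. Their summed level lay between 14.52 and 14.63 in every array (log2), and AFP was lower in both knockdown arrays (difference -0.31, SE 0.098, limma adjusted p = 0.25). By sign, 6 of the 8 were lower, from AFP to TTR at -0.0055, and 2 higher, ALB at 0.16 and APOA1 at 0.09. The 6 fibroblast markers summed to 8.973 and 8.999 in the control arrays and to 8.50 and 9.38 in knockdown replicates 1 and 2, so the knockdown arrays differed from each other on that list by more than the controls did. The 3 leukocyte markers measured summed to 9.49 in knockdown replicate 1 and 8.59 in replicate 2, against 8.83 and 8.9999, and the 3 endothelial ones to 7.60 and 7.16, against 7.33 and 7.23. In these lists LUM (7.131 and 8.597 in knockdown replicates 1 and 2) and CD68 (9.42 and 8.46) parted most. No background level stands behind a value, so no marker can be called present or absent, and their part in the results was not tested. In such bulk samples fewer cells of a type and less RNA per cell cannot be told apart.

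More of the 39 stress response genes lay lower than higher in the MKL1/2 knockdown, and the 15 amino acid transporters, enzymes and tRNA synthetases all lay on the lower side. SLC7A11 and ALDH1L2 lay lowest, at 0.524 and 0.632 of their control levels, and NUPR1 highest, at 1.88 times. None of the 39 passed an adjusted p of 0.05 in limma in either direction, where 0.0923% of all genes passed as lower and 0.0814% as higher. At an unadjusted p under 0.05, 10 genes were lower (SLC7A11, ALDH1L2, SLC7A1, ATF6, ASNS, STC2, PPP1R15A, PDIA4, SLC7A5 and MTHFD2) and 2 higher (EDEM1 and NUPR1). As shares these were 25.6% and 5.13% of the 39, against 8.04% and 6.25% of all genes. The list was chosen with earlier results of these data known, so these shares are a description and were not tested. By sign alone, 28 were lower and 11 higher, and 48% of all genes were lower. The groups did not overlap for 20 genes as lower and 9 as higher, against 23% and 22.5% of all genes. The median log2 difference was -0.13 for the 39 genes and 0.0082 for all genes tested.

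The counts depended on the arrays. Without either control array, 5 genes were lower at an unadjusted p under 0.05 and none higher; over all genes, 4.70% passed that p in either direction without control replicate 1 and 6.62% without replicate 2, against 14.3% with all 4 arrays. Without knockdown replicate 2, the differences were -1.06 for SLC7A11, -0.83 for STC2, -0.75 for ALDH1L2 and -0.64 for SLC7A1. They were -0.57 for ASNS, -0.54 for PPP1R15A and 0.42 for NUPR1. Without knockdown replicate 1, these were, in the same order, -0.81, -0.29, -0.57, -0.43, -0.34, -0.21 and 1.405. SLC7A11 lay at -0.84 without control replicate 1 and at -1.025 without control replicate 2. Each of these fits assumes that the single array left in a group varies like the pair in the other group.

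**Figure D1:**
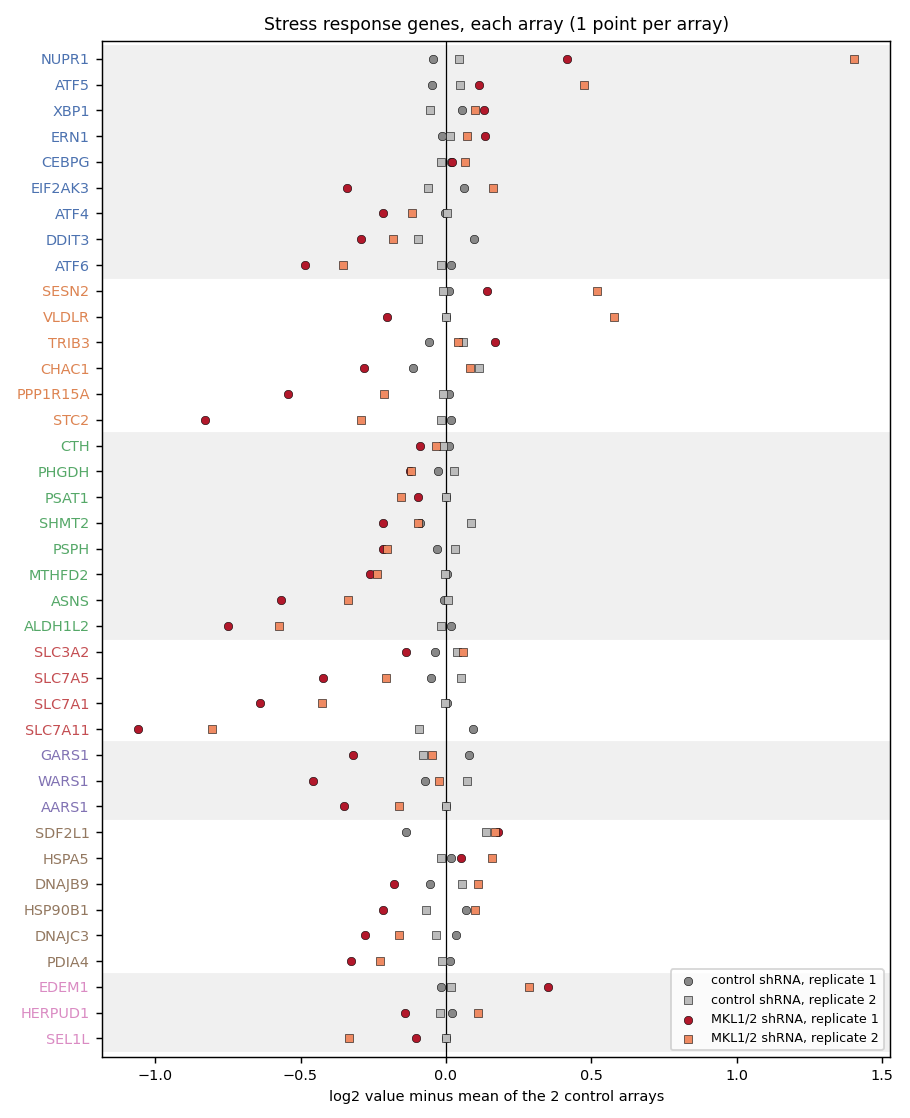
Each row is 1 of the 39 genes, coloured by role, and each point is 1 array, as its log2 value minus the mean of the 2 control arrays. The control points lie close to 0, SLC7A11 lies lowest in both knockdown arrays, and NUPR1 lies 1.40 above the control mean in knockdown replicate 2 but 0.42 above it in replicate 1.

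The transporters that bring amino acids into the cell showed the lowest values of the 7 role groups. SLC7A11, the cystine importer that feeds glutathione synthesis, read 8.28 and 8.10 in the control arrays and 7.13 and 7.38 in knockdown replicates 1 and 2. Its groups were well apart, with a log2 difference of -0.93 (SE 0.128, 95% interval -1.24 to -0.62, limma adjusted p = 0.0765). SLC7A1, the main carrier of cationic amino acids such as arginine, read 7.99 and 7.98 in the controls and 7.34 and 7.56 in the knockdown arrays. The 2 control values were nearly equal and both knockdown values lay below them, at a difference of -0.53 (SE 0.11, interval -0.80 to -0.26, limma adjusted p = 0.137). SLC7A5, the carrier of large neutral amino acids, read 10.45 and 10.55 against 10.08 and 10.29, a smaller difference of -0.31 (SE 0.114, interval -0.59 to -0.036). SLC3A2 encodes the heavy chain that both SLC7A5 and SLC7A11 need to reach the membrane. It read 9.96 and 10.03 in the controls and 9.86 and 10.05 in the knockdown arrays, so its groups overlapped (difference -0.039, SE 0.109, interval -0.31 to 0.23). Without knockdown replicate 1 the sign of SLC3A2 turned, to 0.058. The median of the 4 transporters was -0.42.

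Enzymes of asparagine, serine and one-carbon metabolism were all on the lower side, by small amounts in most cases. For each of the 8 the groups did not overlap and the knockdown arrays were the lower ones, as they were for 23% of all genes. ALDH1L2, the mitochondrial formyltetrahydrofolate dehydrogenase, read 6.06 and 6.02 in the controls and 5.29 and 5.46 in the knockdown arrays. Its difference was -0.66 (SE 0.105, interval -0.92 to -0.41, limma adjusted p = 0.0962), at levels near the middle of each array's probes, whose medians lay between 5.68 and 5.73. Among the genes tested, however, ALDH1L2 was in the dimmest 40%. ASNS, asparagine synthetase and a classic ATF4 target, read 7.996 and 8.008 against 7.44 and 7.67, a difference of -0.45 (SE 0.113, interval -0.73 to -0.18). MTHFD2, the mitochondrial methylenetetrahydrofolate dehydrogenase, read 8.46 and 8.45 against 8.20 and 8.22. The knockdown arrays were within 0.024 of each other there, at a difference of -0.25 (SE 0.092, interval -0.47 to -0.026), and the second MTHFD2 probe gave -0.26. The serine synthesis enzymes PHGDH, PSAT1 and PSPH and the serine hydroxymethyltransferase SHMT2 lay between -0.21 for PSPH and -0.12 for PHGDH, and none had an unadjusted p under 0.05. CTH, which makes cysteine from cystathionine, lay nearest to 0: it read 6.18 and 6.16 against 6.09 and 6.14, a difference of -0.06 with an interval of -0.29 to 0.17. The median of the 8 enzymes was -0.18.

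The aminoacyl-tRNA synthetases charge tRNAs with their amino acids and are ATF4 targets in part. AARS1, the alanyl-tRNA synthetase, read 10.18 in both control arrays and 9.83 and 10.02 in the knockdown arrays (difference -0.26, SE 0.106, interval -0.51 to 0.0035). GARS1, the glycyl-tRNA synthetase, read 9.85 and 9.69 against 9.45 and 9.72, and WARS1, the tryptophanyl-tRNA synthetase, lay at -0.24. The groups overlapped for GARS1 and WARS1, and their values in knockdown replicate 2 were within 0.05 of the control mean.

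**Figure D2:**
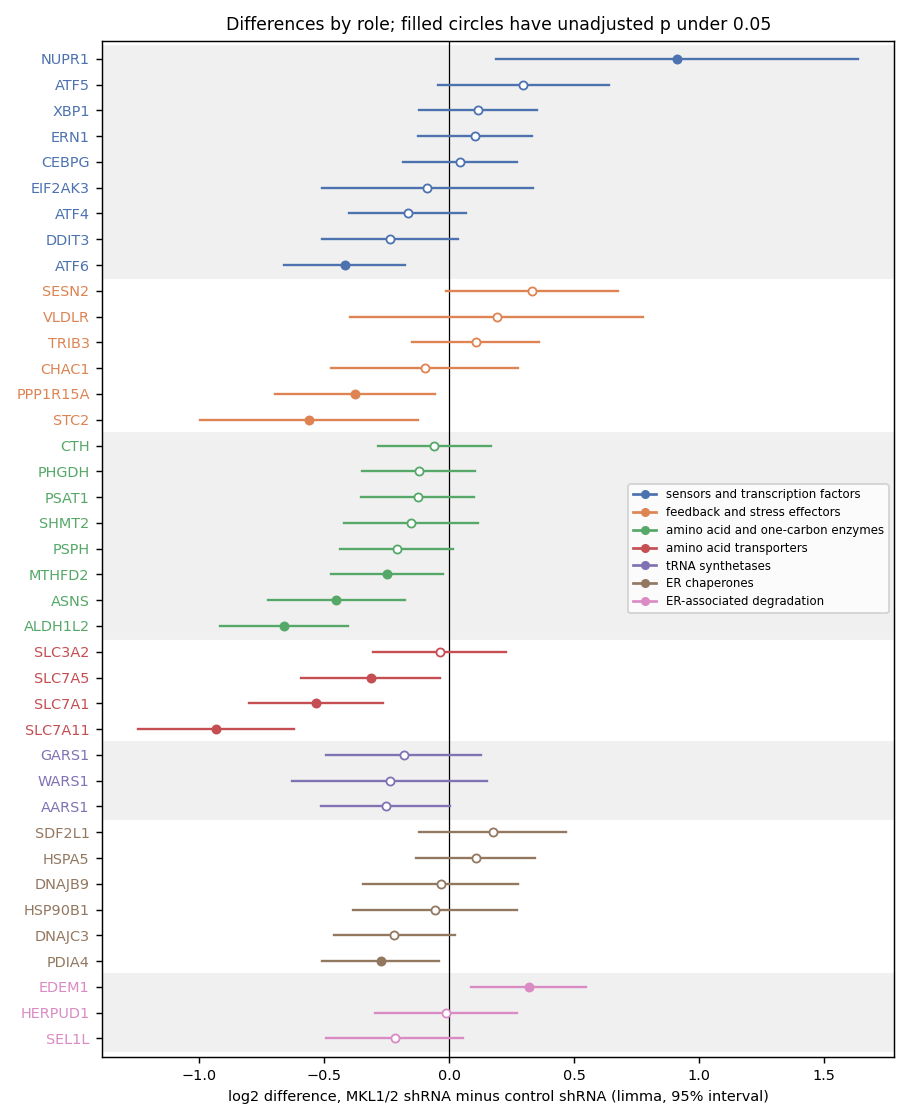
Log2 differences (MKL1/2 shRNA minus control shRNA, 2 arrays each) are plotted with limma's 95% intervals for the 39 genes by role, with filled circles for an unadjusted p under 0.05. The 15 transporters, enzymes and tRNA synthetases all lie to the left of 0, and the other role groups lie on both sides of it.

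The sensors and transcription factors went both ways, and ATF4, DDIT3 and XBP1 lay between -0.24 and 0.12. ATF6, the ER membrane sensor that is cut to release a transcription factor, read 8.59 and 8.56 in the controls and 8.09 and 8.22 in the knockdown arrays. It was the lowest of this group, with both knockdown arrays below both controls (difference -0.42, SE 0.0996, interval -0.66 to -0.18, limma adjusted p = 0.171). EIF2AK3, which encodes PERK, read 7.69 and 7.56 against 7.29 and 7.79, so that the knockdown arrays lay on either side of the controls (difference -0.089, interval -0.51 to 0.33). Without knockdown replicate 1 its difference was 0.16. ERN1, which encodes IRE1, read 7.14 and 7.17 against 7.29 and 7.23, a difference of 0.10 (interval -0.12 to 0.33). Of the 3 sensors, ATF6 alone had an interval that left out 0; the differences between sensors were not tested.

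ATF4 itself read 10.57 in both control arrays and 10.35 and 10.45 in the knockdown arrays, at a difference of -0.17 (SE 0.096, interval -0.40 to 0.068). A dimmer second ATF4 probe read 8.43 and 8.20 in the controls and 7.97 and 7.88 in the knockdown arrays, at -0.39, so the 2 probes shared the direction and differed in size. DDIT3, which encodes the pro-apoptotic factor CHOP, read 6.19 and 5.999 against 5.80 and 5.91 (difference -0.24, SE 0.111, interval -0.51 to 0.033). XBP1, the transcription factor downstream of IRE1, read 10.89 and 10.78 against 10.96 and 10.93, a difference of 0.12 with an interval of -0.12 to 0.35. This gene-level value does not separate spliced from unspliced XBP1. ATF5 and CEBPG, bZIP partners of the response, lay at 0.29 and 0.042. Their groups did not overlap, with the knockdown arrays higher, as for 22.5% of all genes. For CEBPG the groups nearly touched, at 8.246 and 8.212 in the controls against 8.249 and 8.294 (interval -0.18 to 0.27). NUPR1, a small stress-induced chromatin protein, read 5.69 and 5.77 in the controls and 6.15 and 7.13 in the knockdown arrays. Both knockdown values lay above the controls but differed by 0.99 from each other, so the difference of 0.91 had a wide interval (SE 0.298, 0.19 to 1.64, limma adjusted p = 0.263).

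Feedback genes and stress effectors were split. STC2, which encodes the secreted glycoprotein stanniocalcin 2, read 6.20 and 6.17 in the controls and 5.35 and 5.89 in the knockdown arrays, with a difference of -0.56 (SE 0.179, interval -0.997 to -0.126). PPP1R15A, the GADD34 subunit that brings a phosphatase to eIF2 and ends the response, read 7.94 and 7.92 against 7.39 and 7.72 (difference -0.38, SE 0.131, interval -0.70 to -0.058). For both, the replicate 1 value was the lower of the knockdown pair. SESN2, an inhibitor of mTORC1 signalling under amino acid lack, was higher, at 6.55 and 6.53 in the controls and 6.68 and 7.06 in the knockdown arrays (difference 0.33, SE 0.142, interval -0.015 to 0.68). TRIB3, the pseudokinase that restrains ATF4, and CHAC1, the glutathione-degrading enzyme, lay at 0.11 and -0.099, and VLDLR, a lipoprotein receptor, at 0.19. The groups of these 3 genes overlapped.

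ER chaperones and degradation factors, the output of the unfolded protein response, lay close to 0 as groups, at medians of -0.046 and -0.015, and the second turned to 0.023 after quantile normalization. These medians join arrays of opposite sign: the chaperones had a median of -0.20 in knockdown replicate 1 and 0.11 in replicate 2, and the degradation factors of -0.10 and 0.11. PDIA4, a protein disulfide isomerase of the ER, read 10.08 and 10.05 in the controls and 9.74 and 9.84 in the knockdown arrays. Both knockdown arrays lay below the controls, at a difference of -0.28 (SE 0.096, interval -0.51 to -0.041). SDF2L1, which works with the chaperone BiP, read 7.42 and 7.69 against 7.73 and 7.73, a difference of 0.17 (interval -0.12 to 0.47). HSPA5, which encodes BiP, and HSP90B1, which encodes GRP94, lay at 0.10 and -0.058, with intervals of -0.13 to 0.34 and -0.39 to 0.27. DNAJC3, an inhibitor of PERK, lay at -0.22 and DNAJB9, a BiP co-chaperone, at -0.035. EDEM1, the lectin that directs misfolded glycoproteins to degradation, read 7.35 and 7.38 against 7.71 and 7.65. It was higher in both knockdown arrays by similar amounts (difference 0.32, SE 0.094, interval 0.088 to 0.55, limma adjusted p = 0.227). SEL1L, the adaptor of the HRD1 ubiquitin ligase complex that EDEM1 substrates pass through, lay the other way, at 8.48 and 8.49 against 8.38 and 8.15 (difference -0.22, interval -0.49 to 0.056). HERPUD1, an organiser of that complex, lay at -0.015.

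The genes that hold the promoter elements shown above did not share one direction. Of the 8 with a C/EBP-ATF core, 7 lay lower, from -0.53 for SLC7A1 and -0.45 for ASNS to -0.015 for HERPUD1, and CEBPG lay at 0.042. Their median was -0.14, close to the -0.13 of all 39 genes. Over the 511 tested genes with that core in a window, the median was 0.0045, near the 0.0082 of all genes. Read on either strand, the letters TTTCATCA were those of SLC7A1, ASNS and GARS1, which lay at -0.53, -0.45 and -0.18. The letters TTGCATCA were those of AARS1 (-0.26), CHAC1 (-0.099), HERPUD1 (-0.015) and CEBPG (0.042), and TTACATCA those of SLC3A2 (-0.039), so the values of the first and second set overlapped. XBP1, HSPA5 and HSP90B1, which hold the ER stress response element, lay between -0.058 and 0.12, and the groups of HSP90B1 overlapped.

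The 2 knockdown arrays differed from each other on these genes. Of the 39, 32 were higher in knockdown replicate 2 than in replicate 1, against 47.6% of all genes and 52.8% of the 12562 genes within the range of the 39 genes' mean levels. After quantile normalization the count was 28 of 39, with 48% of the genes in that range. As deposited, 65.4% of the 133 genes in the wider lists below were also higher in replicate 2. By list, that share ran from 14.3% (glutathione and NRF2) to 100% (cytosolic heat shock). For the 39 genes, the median difference from the control mean was -0.22 in replicate 1 and -0.049 in replicate 2. The largest gaps were those of NUPR1 (0.99), VLDLR (0.78), STC2 (0.54) and EIF2AK3 (0.50), with replicate 2 the higher in each; these were picked out after their values were seen. VLDLR read 5.20 in both controls, 5.00 in knockdown replicate 1 and 5.78 in replicate 2. SEL1L had the widest gap in the opposite direction, 0.23. Among the 8 enzymes, 7 were higher in replicate 2 as deposited and 4 after quantile normalization. As deposited, their gap ran from 0.0033 for PHGDH to 0.23 for ASNS. A difference between single arrays has no test. The fibroblast, leukocyte and endothelial marker sums given above also parted between these 2 arrays. So did the target MRTFB, at -0.36 from the control mean in replicate 1 and -0.095 in replicate 2. The probe that lists MRTFA read 6.81 and 6.91 in knockdown replicates 1 and 2. The part of these markers and targets in the gaps was not tested.

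**Figure D3:**
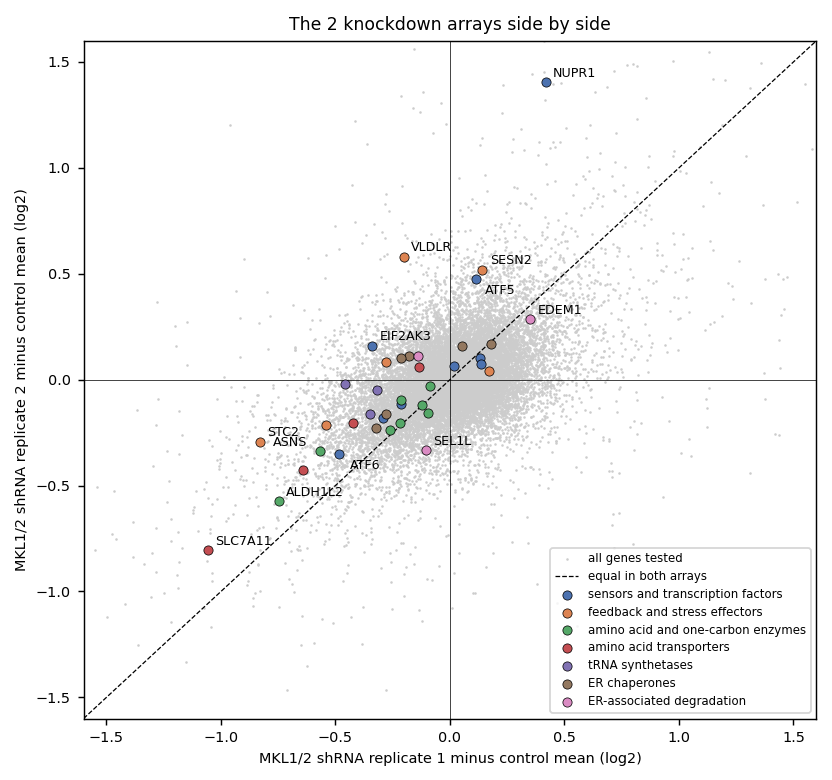
The difference from the control mean is plotted for knockdown replicate 1 (horizontal) and replicate 2 (vertical), log2, with all genes tested in grey, genes beyond the axes not drawn, and the 39 genes coloured by role. Most coloured points, 32 of 39, lie above the dashed line of equal values, and NUPR1 lies farthest above it.

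The rest of the pathway was followed through 10 wider lists of 142 genes, of which 133 were measured by single-gene probes. None of these passed an adjusted p of 0.05 in limma; at an unadjusted p under 0.05, 17 were lower and 5 higher, against 8.04% and 6.25% of all genes. Their median was -0.046. Upstream, the eIF2 kinases and translation factors had 2 of 12 lower at that p and none higher. Both are subunits of eIF2B, the exchange factor that phosphorylated eIF2 blocks: EIF2B3 read 6.66 and 6.47 against 6.14 and 6.21 (difference -0.39, SE 0.108), and EIF2B1 lay at -0.29 (SE 0.093). Its other subunits EIF2B4, EIF2B5 and EIF2B2 lay at -0.11, 0.084 and -1.5e-06. Their intervals were -0.37 to 0.14, -0.15 to 0.31 and -0.24 to 0.24, and differences between subunits were not tested.

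Other genes linked to ATF4 were mixed, with 13 of 23 on the lower side and a median of -0.014. At an unadjusted p under 0.05, 5 were lower and 1 higher. GDF15, a secreted stress hormone, read 9.29 and 9.22 in the controls and 8.72 and 8.50 in the knockdown arrays, lower in both (difference -0.64, SE 0.113, limma adjusted p = 0.116). KLHL24, an adaptor of a ubiquitin ligase, read 6.354 and 6.335 against 6.94 and 7.40, higher in both (0.82, SE 0.159, limma adjusted p = 0.131). The other 4 lower at that p were the neutral amino acid carriers SLC1A4 (-0.48) and SLC1A5 (-0.34), the autophagy receptor SQSTM1 (-0.34) and the mitochondrial folate enzyme MTHFD1L (-0.25), named after their values were seen. The 16 other cytosolic tRNA synthetases measured had 13 on the lower side and a median of -0.094, with MARS1 at -0.38 (SE 0.107) and QARS1 at 0.32 (SE 0.121) the 2 with an unadjusted p under 0.05.

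Among the 18 other ER chaperones and folding enzymes measured, 3 were lower and 1 higher at that p, with a median of -0.039. DNAJC10, an ER disulfide reductase, read 9.16 and 9.22 against 8.77 and 8.80 (difference -0.41, SE 0.094). The 1 higher gene, the ER oxidase ERO1B, read 3.87 and 3.74 against 4.09 and 4.16, near the lower quartile of the arrays (3.99 to 4.02), so no size is read from it. In ER-associated degradation outside the 39, 10 of 16 were on the lower side. At that p 2 were lower, NPLOC4 at -0.28 (SE 0.092) and VCP at -0.27 (SE 0.101), partners in pulling substrates from the ER membrane. Translocation and vesicle transport genes had a median of -0.0017. There 1 gene was lower at that p and 2 were higher. SEC11C, a signal peptidase subunit, lay at -0.66 (SE 0.099, limma adjusted p = 0.087). SPCS1 of the same complex lay at 0.28 (SE 0.094) and SEC61B at 0.25 (SE 0.095). Of the 6 ATF6-related genes measured, 1 was lower at that p, CREB3 (-0.40, SE 0.144), and CREB3L3, a liver factor cut like ATF6, lay at 0.33 with overlapping groups.

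Mitochondrial chaperones and proteases had the lowest median of the wider lists, -0.19, with 2 of 8 lower at an unadjusted p under 0.05. HSPD1, the chaperonin HSP60, read 10.55 and 10.50 in the controls and 9.81 and 10.05 in the knockdown arrays (difference -0.60, SE 0.115, limma adjusted p = 0.131), and the protease LONP1 lay at -0.42 (SE 0.107). Cytosolic heat shock genes had none of 10 at that p, with BAG3 at 0.23 and HSPH1 at -0.22. The glutathione and NRF2 list, to which SLC7A11 also belongs by function, had none of 7: NFE2L2, which encodes NRF2, lay at 0.19 and SRXN1 at -0.39, the latter at 9.18 in knockdown replicate 1 and 8.32 in replicate 2. GCLC and GCLM, the subunits of the enzyme that uses cysteine in glutathione synthesis, lay at -0.072 and 0.035 with overlapping groups.

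**Figure D4:**
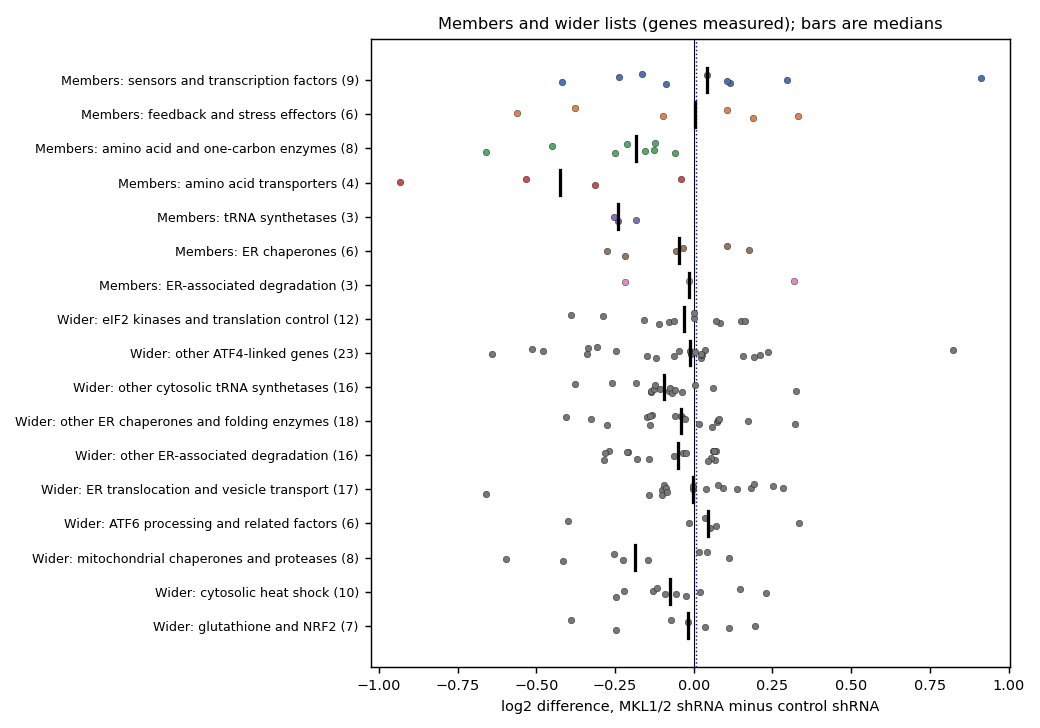
Points are log2 differences (MKL1/2 shRNA minus control shRNA) of single genes in the 7 role groups of the 39 genes and in the 10 wider lists, with the number of genes measured in brackets. Black bars are medians and the dotted line is the median of all genes tested; the lowest medians are those of the amino acid transporters (-0.42) and tRNA synthetases (-0.24) among the 39 and of the mitochondrial list (-0.19) among the others.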

How the data were processed

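Biotin-labelled cDNA was hybridised to 1-colour whole-transcript arrays, per the labels' protocols. The deposited table holds 33297 probes in 4 columns of log2 expression values, a scale inferred from their range of 1.03 to 13.65. The submitters' processing notes name Partek; how values were background-corrected, normalized and summarized is not given in the sources used here. Probes were named from the platform annotation, with symbols updated through Entrez identifiers; 19460 probes list 1 gene, and the brightest probe on average was kept for each of 18417 genes. No dim gene was removed.

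Groups came from the sample titles. Differences (knockdown minus control) were tested over all genes with limma 3.58.1 in R 4.3.3 (lmFit, eBayes, two-sided, 2 residual and 4.12 prior degrees of freedom), with Benjamini-Hochberg adjustment at 0.05. The number of arrays limits the precision. No 2 arrays were duplicates (at most 174 identical probe values in a pair).

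The 39 genes and all lists were chosen with earlier results of these data known, so lists are described by counts and medians and were not tested. Full values are given for the 3 sensors, ATF4, DDIT3 and XBP1, genes with an unadjusted p under 0.05, and the lowest and highest of each role group; in wider lists, the 2 genes with the smallest p are named with at least their difference. The 12 alternatives changed the filter, scaling, probe rule, variance model, block and arrays.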

Additional observations from a re-analysis of the deposited data

How the results depend on the processing

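Leaving out each array in turn gave 0 to 6 genes of the 39 lower and 0 to 1 higher at an adjusted p of 0.05 in limma, 5 to 15 lower and 0 to 5 higher at an unadjusted p under 0.05, 22 to 29 lower and 10 to 17 higher by sign, and medians from -0.22 to -0.049. Leaving out either knockdown array raised the number of all genes past that unadjusted p. Larger counts in those fits therefore cannot be read as particular to the 39 genes. Among the 24 genes with full values, signs turned without knockdown replicate 1 in EIF2AK3 and SLC3A2. EIF2AK3 lay at 0.16 there and at -0.34 without knockdown replicate 2, and SLC3A2 at 0.058 and -0.14. The cause was not tested. The count higher at an unadjusted p under 0.05 was 4 after quantile normalization and 1 without variance moderation, against 2; the cause was not tested. With the replicate number as a block, 0 of the 39 passed the adjusted p, 8 were lower and 3 higher at an unadjusted p under 0.05 (12.8% of all genes in either direction), and the median stayed at -0.13. The replicate numbers were not read as pairs: no label ties a number to an infection or day, and deviations of same-numbered arrays correlated at -0.067. Over all genes, 32 passed an adjusted p of 0.05 with all arrays, 51 with a robust prior, 52 after quantile normalization, 93 with the block, 299 and 781 without knockdown replicates 1 and 2, and 0 without variance moderation or without either control array (1840, 866 and 1219 at an unadjusted p under 0.05). Leaving out the dimmest 40% of genes removed 2 of the 39, ALDH1L2 and VLDLR, so the difference of ALDH1L2 was not refitted there. With 2 arrays a group, no background signal and no detection call, small differences among these genes cannot be resolved.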
